A study of Bos taurus with 36 samples.

Results

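The transcripts described here belong to the enzymes that make heme in the liver and to the reductases that turn the product of heme breakdown into bilirubin. They were chosen by gene symbol, as every probe set whose single annotated gene is ALAS1, ALAD, UROS, UROD, CPOX, PPOX, FECH, BLVRA or BLVRB. This gave 12 of the 24128 probe sets of the Affymetrix Bovine Genome Array, for 9 of the 9155 genes named alone by a probe set. UROD, CPOX and FECH have 2 probe sets each. For such a gene the probe set of higher mean intensity is reported first, and the other is given beside it.

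Heme is an iron-holding porphyrin that serves as the working group of cytochromes, catalase and hemoglobin. Its synthesis starts in the mitochondrion, where ALAS1 joins glycine and succinyl-CoA to aminolevulinic acid, the step that limits the rate in liver. ALAD, UROS and UROD then build and trim the ring in the cytosol, CPOX and PPOX oxidize it in the mitochondrion, and FECH inserts the iron. Much of the heme made in hepatocytes goes to cytochromes P450. Heme oxygenase opens the ring to biliverdin, and the biliverdin reductases BLVRA and BLVRB reduce it further.

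Samples came from 8 Holstein-Friesian cows of high yield and free of udder disease, which had calved once, 9 to 12 weeks earlier. Each received 200 µg of E. coli LPS (0111:B4) in saline into the right front gland of the udder, and saline alone into the left front gland. Liver was biopsied 22 hours before the infusion (-22 h) and at 9 and 48 h in all 8 cows, and also at 3, 6 and 12 h in cows 1, 3, 7 and 8. Each cow is thus its own control, and the 36 arrays hold no cow without LPS, so that LPS and the time since the first biopsy cannot be told apart.

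Levels are log2 values made with GCRMA, which corrects the background, sets all arrays to the same distribution of intensities and gives 1 value per probe set and array. Values run from 0.686 to 16.4, with array medians between 4.154 and 4.384, and a probe set near the lower end cannot show a fall. The number of cows limits the precision. Each hour was compared with -22 h in 1 limma model of all 36 arrays with 1 mean per hour, and a transcript was called when its p, adjusted by Benjamini-Hochberg over the whole array (adjusted p), was below 0.05. All later changes share the 8 arrays at -22 h.

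The tissue carried hepatocyte transcripts throughout. The 10 hepatocyte markers had a mean level of 13.83 at -22 h (13.66 to 13.98 over the arrays), 13.28 at 9 h (13.02 to 13.48) and 14.02 at 48 h (13.93 to 14.09). Of the 10, 7 were lower and 1 higher at 9 h, against 28.4% and 36.6% of all genes. None of the 6 measured red-cell markers, HBA and HBB among them, had a mean of 5 or more. Their mean level was 2.21 to 2.97 on every array, near the lower end, so no fall could be seen and none was called lower. Of the 6, 2 were higher at 9 h, 1 at 12 h and 2 at 48 h, against 36.6%, 30.9% and 15% of all genes. ALAS2, the red-cell counterpart of ALAS1, had a level of 2.28 at -22 h, near the lower end. The 5 measured neutrophil markers rose from a mean level of 4.14 (3.74 to 4.38) to 8.28 at 9 h (7.29 to 9.76). There 4 of 5 were higher, against 36.6% of all genes. The mean level of the 8 Kupffer cell markers was 9.31 at -22 h (8.76 to 9.87) and 8.61 at 9 h (8.16 to 9.30). There 5 of 8 were lower, against 28.4% of all genes. Of 8 endothelial markers 5 were lower and 1 higher at 9 h. In biopsies of whole tissue, fewer cells of a type and less RNA per cell cannot be told apart, and the part of incoming cells in the changes below was not tested.

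Expression of ALAS1 fell to its lowest level within 6 hours of LPS infusion. By 48 h it had risen most of the way back, though it was still lower than at -22 h in 8 of 8 cows. At -22 h its level was 11.91 at the lowest, 12.47 at the median and 12.97 at the highest of 8 cows. At 3 h cows 1, 3, 7 and 8 had levels of 10.71, 10.95, 10.19 and 9.53. At 6 h the same cows had 6.08, 7.09, 5.80 and 5.51. No array at 3 or 6 h overlapped the arrays at -22 h, and 6 h was the lowest of the 6 hours in 4 of 4 cows. At 9 h the level was 6.89 at the lowest, 7.72 at the median and 8.86 at the highest of 8 cows. At 12 h cows 1, 3, 7 and 8 had 11.12, 10.61, 8.83 and 9.99, and at 48 h the 8 cows ran from 10.99 in cow 2 over a median of 12.01 to 12.31. The groups at 9 and 12 h also stood wholly below -22 h, while 48 h overlapped it.

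As changes from -22 h, ALAS1 fell by 2.11 on the log2 scale at 3 h (SE 0.37, n = 4 cows, adjusted p = 0.000203 in limma), that is 4.33-fold. It fell by 6.34 at 6 h (SE 0.37, n = 4, limma adjusted p = 4.11e-15), or 81.0-fold. At 9 h the fall was 24.8-fold (log2 change -4.63, SE 0.30, n = 8, limma adjusted p = 1.13e-14) and at 12 h it was 4.99-fold (log2 change -2.32, SE 0.37, n = 4). Only a gene with a high starting level can fall as far as ALAS1 did at 6 and 9 h, and 5899 of the 9155 genes had a mean level of at least 5. Of the 9155 genes, 7 had a lower log2 change than ALAS1 at 3 h, 3 at 6 h, 42 at 9 h and 307 at 12 h. The 3 at 6 h, named after their values were seen, were CYP7A1, which starts bile acid synthesis, with -10.45, THRSP, a lipogenic factor, with -8.05, and AKR1C3, an aldo-keto reductase, with -6.49. At 48 h the log2 change of ALAS1 was -0.57 (SE 0.30, limma adjusted p = 0.135), which did not pass the test. The model leaves the cow out, and within cows the value was lower in 8 of 8 (-1.39 to -0.18). With a fixed term for the cow the change was -0.57 (SE 0.25, limma adjusted p = 0.0763), which did not pass either.

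**Figure D1:**
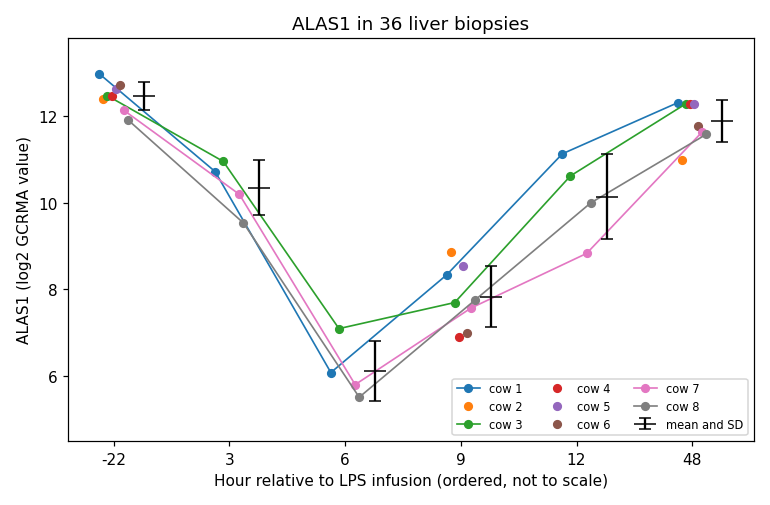
ALAS1 level (log2 GCRMA value, vertical axis) in each of 36 biopsies by hour relative to LPS infusion (horizontal axis, ordered and not to scale), with 1 colour per cow, lines for the 4 cows sampled at every hour, and black bars for the mean and SD of the hour. The 4 biopsies at 6 h lie between 5.51 and 7.09, below every biopsy at -22 h (11.91 to 12.97), and the 8 at 48 h lie between 10.99 and 12.31.

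Successive hours were also compared, as in the design of the study. With a Bonferroni-adjusted p below 0.01, 4 of the 9 genes (ALAS1, ALAD, UROD and FECH) were differentially expressed (DE) at least once, and 31.8% of all genes were. ALAS1 was DE in the step from 3 to 6 h (log2 change -4.23, SE 0.43, Bonferroni-adjusted p in limma = 1.05e-06). Its rises from 6 to 9 h (1.71, SE 0.37) and from 9 to 12 h (2.31, SE 0.37, Bonferroni-adjusted p in limma = 0.0152) did not reach that threshold. UROD was DE in the same step from 3 to 6 h (-1.35, SE 0.16). ALAD (2.33, SE 0.17) and FECH (1.19, SE 0.12) were DE in the step from 12 to 48 h, on the way up.

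Read against -22 h, most of the pathway was lower from 6 to 12 h. At 3 h 1 of the 9 genes was lower (ALAS1) and 1 higher (CPOX), while 2.57% of all genes were lower and 4.47% higher. At 6 h 6 were lower (ALAS1, ALAD, UROS, UROD, FECH and BLVRB) and 1 higher, against 29.3% and 26% of all genes. The same 6 were lower at 9 h, with 1 higher, against 28.4% and 36.6%, and at 12 h, with 2 higher, against 22.2% and 30.9%. Among the 5899 genes with a mean level of at least 5, to which 8 of the 9 genes belong, 40.2% were lower at 6 h, 38.3% at 9 h and 30.1% at 12 h. The median log2 change of the 9 genes was -0.20 at 3 h, -0.55 at 6 h, -1.0 at 9 h, -1.03 at 12 h and -0.31 at 48 h, and that of all genes lay between -0.02 and 0.04 at every hour.

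ALAD, which condenses aminolevulinic acid to porphobilinogen, fell later than ALAS1. Its level at -22 h was 13.69 at the lowest, 13.86 at the median and 13.98 at the highest of 8 cows. At 6 h cows 1, 3, 7 and 8 had 12.69, 13.21, 12.91 and 12.79, at 9 h the 8 cows ran from 11.33 over a median of 11.93 to 12.33, and at 12 h the 4 cows had 11.52, 11.26, 11.58 and 10.90. These 3 groups lay below every array at -22 h, and 12 h was the lowest hour in 4 of 4 cows. The log2 change was -0.23 at 3 h, which did not pass the test, then -0.95 (SE 0.17) at 6 h, -1.97 (SE 0.14) at 9 h and -2.54 (SE 0.17, limma adjusted p = 3.11e-14) at 12 h, a 5.80-fold fall. At 48 h it was -0.21 (SE 0.14, limma adjusted p = 0.234). There 7 cows lay between 13.60 and 13.82 and cow 2 stood apart at 12.83.

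UROS, which closes the porphyrin ring, was the dimmest of the transcripts that fell. At -22 h its level ran from 6.24 over a median of 6.77 to 7.46 in 8 cows. At 12 h cows 1, 3, 7 and 8 had 5.08, 5.35, 4.41 and 4.46, all below the arrays at -22 h, as were those at 6 and 9 h. The log2 change was -1.62 (SE 0.29) at 6 h, -1.79 (SE 0.24) at 9 h and -2.03 (SE 0.29, limma adjusted p = 6.47e-07) at 12 h. Within cows the difference at 12 h ran from -3.06 to -0.89, and the lowest hour was 12 h in 2 cows, 9 h in 1 and 6 h in 1. At 3 h (-0.43, SE 0.29) and 48 h (-0.31, SE 0.24) it did not pass the test.

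UROD, which removes carboxyl groups from the ring, was lower from 6 h on. Its level at -22 h ran from 10.40 over a median of 10.56 to 10.77. At 6 h cows 1, 3, 7 and 8 had 8.92, 8.87, 8.99 and 9.10, and at 9 h the 8 cows lay between 8.62 and 8.97 with a median of 8.72. All of these were below -22 h, and 9 h was the lowest hour in 4 of 4 cows. The log2 change was -1.58 (SE 0.14) at 6 h, -1.77 (SE 0.12, limma adjusted p = 1.31e-14) at 9 h and -1.28 (SE 0.14) at 12 h. The other probe set named for UROD had a level of 2.58 at -22 h, near the lower end, and passed the test at no hour.

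FECH, which puts iron into the ring, fell less and ended above its start. At -22 h its level ran from 8.90 over a median of 9.13 to 9.41, and at 9 h from 7.86 over 8.20 to 8.31, with no overlap. At 12 h cows 1, 3, 7 and 8 had 8.56, 8.02, 8.19 and 8.34. The log2 change was -0.49 (SE 0.12) at 6 h, -1.0 (SE 0.10, limma adjusted p = 9.99e-11) at 9 h, -0.86 (SE 0.12) at 12 h and 0.33 (SE 0.10, limma adjusted p = 0.0145) at 48 h, where it was higher in 7 of 8 cows. The other FECH probe set, with a level of 4.71 (SD 0.58) at -22 h, was lower at 9 h (-0.60, SE 0.21) and higher at 48 h (0.99, SE 0.21), and passed the test at neither 6 nor 12 h. With the mean of both probe sets the change at 6 h was -0.33 (limma adjusted p = 0.0966).

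BLVRB, which reduces biliverdin beta isomers and flavins, had a level at -22 h of 11.65 at the lowest, 12.05 at the median and 12.17 at the highest of 8 cows. At 9 h the level ran from 10.74 over a median of 11.08 to 11.27, and at 12 h cows 1, 3, 7 and 8 had 11.07, 10.80, 10.80 and 11.14. Both groups lay below -22 h. The log2 change was -0.55 (SE 0.13) at 6 h, -0.92 (SE 0.10) at 9 h and -1.03 (SE 0.13, limma adjusted p = 2.58e-08) at 12 h. At 48 h it was still lower, with -0.49 (SE 0.10), in 8 of 8 cows. BLVRA, the main biliverdin reductase, had levels between 2.81 and 3.12 on all 36 arrays, near the lower end, so no fall could be seen. It counts among the genes higher at 12 h by 0.08, which rests on cow 3 at 3.12, and without cow 3 the change was 0.01 (limma adjusted p = 0.739).

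**Figure D2:**
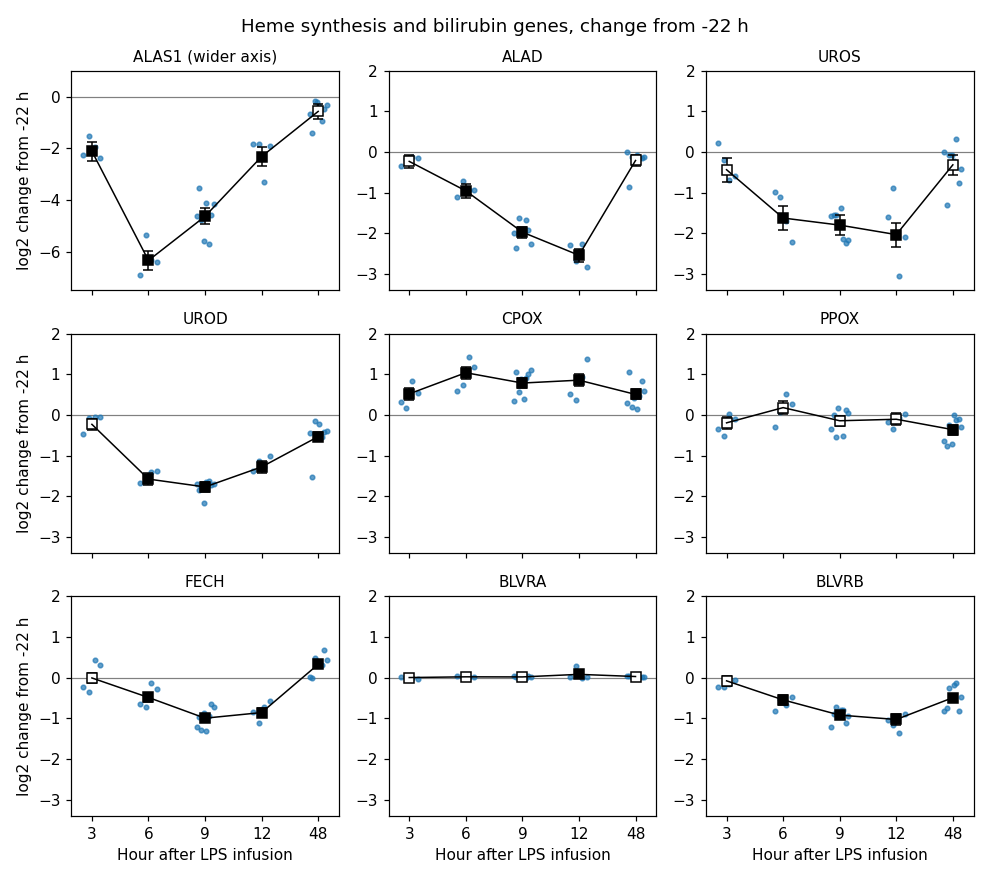
Log2 change from -22 h (vertical axis) at each hour after LPS infusion (horizontal axis, ordered) for the 9 genes, with blue points for single cows, squares and bars for the limma change and its SE, and filled squares where the adjusted p was below 0.05. ALAS1, on a wider axis, is lowest at 6 h (-6.34), UROD (-1.77) and FECH (-1.0) at 9 h and ALAD (-2.54) at 12 h, while CPOX lies above 0 at every hour.

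ALAS1 was set against the other 7 genes with a mean level of at least 5, leaving out BLVRA, whose probe set could not show a fall. Within cows, at 3 and 6 h the log2 change of ALAS1 was below that of each of the 7 in 4 of 4 cows, and at 9 h in 8 of 8. Mean levels before LPS were 6.85 for UROS and 8.005 for PPOX. From there a fall as deep as that of ALAS1 at 6 h (log2 change -6.34) would end near the lower end of the scale. For UROS the same holds at 9 h (-4.63). The counts for both genes at 6 h, and the count and test for UROS at 9 h, were thus largely set by the starting levels. At 9 h the log2 change of ALAS1 minus that of the other gene was -2.66 (SD 0.93, n = 8 cows) for ALAD, -2.84 (SD 0.70) for UROS and -2.86 (SD 0.72) for UROD. In an exact sign-flip test over cows, two-sided, each of the 7 comparisons at 9 h gave p = 0.00781, the smallest that 8 cows allow. As all 8 cows had the same sign, this p follows from the counts above and adds nothing to them. The 7 comparisons share the ALAS1 values, and the p was not adjusted for their number. At 12 h ALAS1 was further below its start than ALAD in 1 of 4 cows and than UROS in 3 of 4. With 4 cows the same exact test cannot go below p = 0.125, so the difference in the hour of the lowest level between ALAS1, UROD and ALAD was not tested.

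CPOX, which makes protoporphyrinogen, moved the other way. At -22 h its level ran from 9.22 over a median of 9.54 to 10.21 in 8 cows. At 6 h cows 1, 3, 7 and 8 had 10.42, 10.95, 10.64 and 10.48, all above -22 h. At 9 h the 8 cows ran from 10.18 over 10.32 to 10.77, at 12 h the 4 cows had 10.35, 10.56, 10.15 and 10.69, and at 48 h the level ran from 9.87 over 10.09 to 10.39, so that these hours overlapped -22 h through its highest cow. The log2 change was 0.52 (SE 0.15, limma adjusted p = 0.0333) at 3 h, 1.04 (SE 0.15, limma adjusted p = 6.72e-07) at 6 h, 0.78 (SE 0.12) at 9 h, 0.85 (SE 0.15) at 12 h and 0.50 (SE 0.12) at 48 h, and it was positive in every cow at every hour. The other CPOX probe set rose by 1.68 (SE 0.26) at 6 h, 1.32 (SE 0.21) at 9 h, 1.82 (SE 0.26) at 12 h and 1.14 (SE 0.21) at 48 h, and had 0.79 (SE 0.26, limma adjusted p = 0.0662) at 3 h. The call at 3 h was lost when cow 1, 2, 4, 6, 7 or 8 was left out (limma adjusted p between 0.0533 and 0.14).

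The level of CPOX at -22 h moved with 1 of 2 measures of RNA integrity, and less closely with the other. The array carries probe sets for the 5′ and the 3′ end of GAPDH, a control transcript, and the log2 difference of the 5′ from the 3′ probe set falls when RNA is shortened. It was -0.22 on average at -22 h (-0.46 to 0.05), 0.02 at 3 h, 0.09 at 6 h, 0.08 at 9 h, 0.24 at 12 h and 0.22 at 48 h (0.06 to 0.37). At -22 h cows 7, 8 and 2 had the lowest differences (-0.46, -0.43 and -0.42) and also the lowest CPOX levels (9.22, 9.31 and 9.24). Cow 3 had the highest of both (0.05 and 10.21). Cows 7, 8 and 2 also had the lowest levels at -22 h of ALAS1 (12.13, 11.91 and 12.38) and of FECH (8.92, 8.90 and 9.03). This was not so for ALAD, UROS, UROD, PPOX, BLVRA or BLVRB. The difference between the ends of EF1A, another control transcript, followed CPOX at -22 h in some cows and not in others. Cow 3 was highest in both (2.25 and 10.21), and cow 2 was low in both (2.03 and 9.24). Cow 1 had the lowest EF1A difference (1.92) with a CPOX level of 9.84, and cow 7 had 2.20 with 9.22. Between hours the EF1A difference also moved, from 2.14 on average at -22 h (1.92 to 2.25) to 2.41 at 9 h (2.25 to 2.63) and 3.05 at 48 h (2.79 to 3.37). With the GAPDH difference as a covariate, a setting chosen after seeing the data, CPOX changed by 0.76 (SE 0.15, limma adjusted p = 0.000136) at 6 h and 0.51 (SE 0.13, limma adjusted p = 0.00177) at 9 h. At 3 h (0.30, limma adjusted p = 0.389), 12 h (0.45, limma adjusted p = 0.0536) and 48 h (0.11, limma adjusted p = 0.667) it no longer passed the test. With the same covariate the change of ALAS1 at 6 h was -6.54 (SE 0.44). Whether RNA integrity had a part in the change of CPOX was not tested further.

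**Figure D3:**
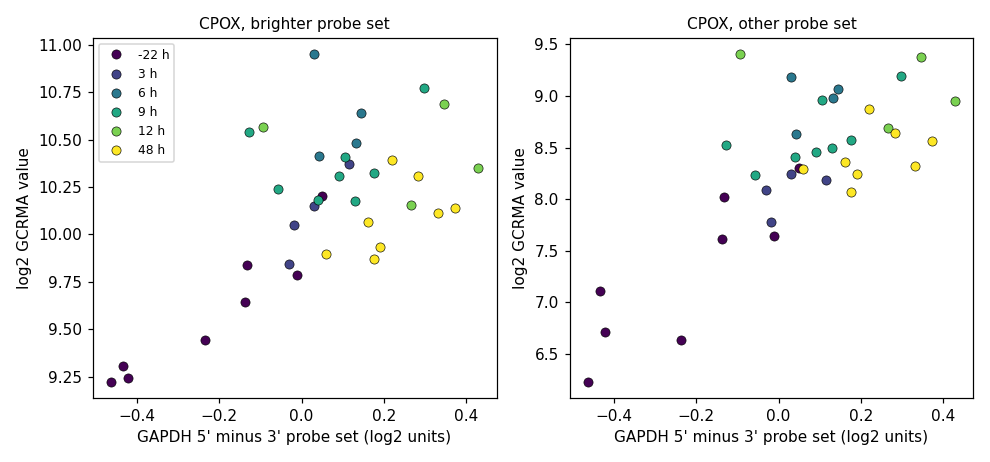
CPOX level (log2 GCRMA value, vertical axes) of the brighter (left) and the other probe set (right) against the log2 difference between the GAPDH 5′ and 3′ control probe sets (horizontal axes) on the 36 arrays, coloured by hour. The 3 arrays at -22 h with the lowest GAPDH difference (-0.46 to -0.42) have CPOX levels of 9.22 to 9.31 on the left, and the 4 arrays at 6 h lie between 10.42 and 10.95.

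PPOX, which forms protoporphyrin, showed no change past the test from 3 to 12 h, with log2 changes between -0.20 and 0.18. At 48 h it was lower by 0.36 (log2 change -0.36, SE 0.12, limma adjusted p = 0.0314, lower in 8 of 8 cows), from 7.80 to 8.22 at -22 h to 7.04 to 8.03. That call was lost without cow 1, 2 or 4 (limma adjusted p between 0.0755 and 0.125).

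At 48 h the pathway was nearer its start than at 9 or 12 h, but not all genes had returned to it. Of the 9 genes 3 were lower (UROD, PPOX and BLVRB) and 2 higher (CPOX and FECH), against 16.2% and 15% of all genes. UROD was lower by a log2 change of -0.54 (SE 0.12, limma adjusted p = 0.00128), with 7 cows between 9.97 and 10.37 and cow 2 at 9.00, and without the 48 h array of cow 2 it was -0.39. All 8 arrays of UROD at 48 h lay below every array at -22 h, the lowest of which was 10.40. The changes of these 5 genes are small, and at this hour the GAPDH difference had shifted as given above. So had the EF1A difference (2.79 to 3.37, against 1.92 to 2.25 at -22 h), without overlap, and no fit used it as a covariate. With the GAPDH difference as a covariate none of the 5 passed the test. The log2 changes were then -0.48 for UROD (SE 0.18, limma adjusted p = 0.105) and -0.44 for PPOX (SE 0.19, limma adjusted p = 0.126). They were -0.51 for BLVRB (SE 0.16, limma adjusted p = 0.0532) and 0.19 for FECH (SE 0.14, limma adjusted p = 0.352). For UROD, PPOX and BLVRB the change kept about its size and the SE rose, from 0.12, 0.12 and 0.10. For FECH and CPOX the change itself was smaller. Centring each array on its median moved the median change of all genes at 48 h by 0.13, and turned 1486 genes lower and 1369 higher into 944 lower and 3174 higher. Under that scaling UROD, BLVRB, CPOX and FECH kept their calls and PPOX lost its call (-0.23, limma adjusted p = 0.111).

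Genes around the pathway were read from lists by role. Heme breakdown and bilirubin handling had 9 measured genes of 13, of which 6 were lower and 2 higher at 9 h, against 28.4% and 36.6% of all genes, with a median log2 change of -1.0 against 0.04 for all genes. HMOX1, the inducible heme oxygenase, rose from 6 to 12 h. Its log2 change was 1.22 (SE 0.23) at 6 h, 2.00 (SE 0.19, limma adjusted p = 4.35e-11, higher in 8 of 8 cows) at 9 h and 1.36 (SE 0.23) at 12 h. HMOX2, its constitutive counterpart, rose by 0.59 (SE 0.23) at 6 h, 1.05 (SE 0.19) at 9 h and 1.36 (SE 0.23) at 12 h. UGT1A6, a glucuronosyltransferase, fell by 2.94 (SE 0.15) at 12 h and GSTA4, a glutathione transferase, by 3.20 (SE 0.47). Whether UGT1A6 and GSTA4 act on bilirubin in these cows was not tested. The uptake carrier SLCO2B1 fell by 4.95 (SE 0.23) at 9 h, and SLCO1B3 fell by 1.60 (SE 0.08) at 12 h. ALB, the blood carrier of bilirubin and the brightest gene of the list, passed the test at no hour through its brightest probe set, with a level of 16.14 at -22 h near the upper end of the scale. Of its 8 other probe sets, 3 differed from it in call or direction at 9 h.

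Heme and porphyrin transport had 8 measured genes of 17, with 5 lower and 1 higher at 9 h, against 28.4% and 36.6% of all genes, and a median of -0.67. ABCG2, an exporter of porphyrins, fell by 2.86 (SE 0.16) at 12 h. ABCB6, a porphyrin transporter, fell by 2.50 (SE 0.22) at 12 h, and its log2 change at 48 h was -0.76 (SE 0.18), lower in 8 of 8 cows. PGRMC1, a heme-binding partner of FECH and of cytochromes P450, fell by 2.26 (SE 0.16) at 12 h. Of the mitochondrial iron carriers, SLC25A37 rose by 1.43 (SE 0.16) at 6 h, and SLC25A28 rose by 0.62 (SE 0.19) at 6 h and fell by 1.17 (SE 0.19) at 12 h. FABP1, a heme-binding fatty acid carrier and the brightest of the list, fell by 1.14 (SE 0.16) at 12 h. The list of substrates, iron-sulfur and turnover factors had 12 measured genes of 15, with 7 lower and 2 higher at 9 h, against the same shares of all genes, and a median of -0.42. SUCLA2, a subunit of the enzyme that uses succinyl-CoA, rose by 2.97 (SE 0.19) at 6 h. The falls at 9 h included GLRX5, an iron-sulfur assembly factor (log2 change -2.32, SE 0.26), and SLC25A11, a carrier of oxoglutarate (-1.77, SE 0.13). SHMT2, which interconverts serine and glycine, had -1.59 (SE 0.13) and FDX1, an electron carrier, -1.03 (SE 0.07). SUCLG2, the brightest of that list, was lower at 12 h alone, by a log2 change of -0.27 (SE 0.08).

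The list of factors known to act on ALAS1 transcription had 15 measured genes of 23, of which 7 were higher and 3 lower at 9 h, against 36.6% and 28.4% of all genes, with a median of 0.35. These counts at 9 h are near the shares of all genes. PPARGC1A, a coactivator of ALAS1 in fasting, rose by 2.97 (SE 0.36) at 6 h and 2.76 (SE 0.30) at 9 h, when ALAS1 was at its lowest levels. EGR1, an immediate early factor, rose by 6.02 (SE 0.85) at 3 h and MAFF, a small Maf protein, by 4.62 (SE 0.51) at 6 h, both from levels under 5. HNF4A, a hepatocyte nuclear receptor, was 1 of 3 genes of the list lower at 3 h, where 2.57% of all genes were. Its log2 change was -1.60 (SE 0.31) at 3 h and -2.40 (SE 0.25) at 9 h. RXRA, the common partner of xenobiotic and lipid receptors, fell by 2.55 (SE 0.12) at 9 h. NFE2L2, the brightest of the list, passed the test at no hour, though its other probe set rose by 1.38 (SE 0.23) at 6 h.

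The list of enzymes that carry heme had 27 measured genes of 44, of which 18 were lower and 3 higher at 9 h, against 28.4% and 36.6% of all genes, with a median of -0.94. At 3 h 1 was lower (CYP7A1, log2 change -3.0, SE 0.57), where 2.57% of all genes were. Lower were 14 at 6 h, 19 at 12 h and 3 at 48 h, against 29.3%, 22.2% and 16.2% of all genes. CYP7A1 fell by 10.45 (SE 0.57) at 6 h and by 10.09 (SE 0.47) at 9 h, to levels near the lower end, where values are compressed. CYP1A1, which oxidizes aromatic compounds, fell by 6.65 (SE 0.22) at 9 h, and CYP2U1, a fatty acid hydroxylase, by 5.57 (SE 0.21). SUOX, sulfite oxidase, fell by 3.47 (SE 0.22) at 9 h and CYP2C87, a P450 of drug metabolism, by 3.79 (SE 0.50) at 12 h. CAT, catalase and the brightest of the list, had -0.42 (SE 0.07) at 9 h and -1.16 (SE 0.09) at 12 h. The 3 higher at 9 h were IDO1, which degrades tryptophan (2.03, SE 0.35), CYB5B, a cytochrome of the outer mitochondrial membrane, with 1.97 (SE 0.25), and CYC1, of the respiratory chain.

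**Figure D4:**
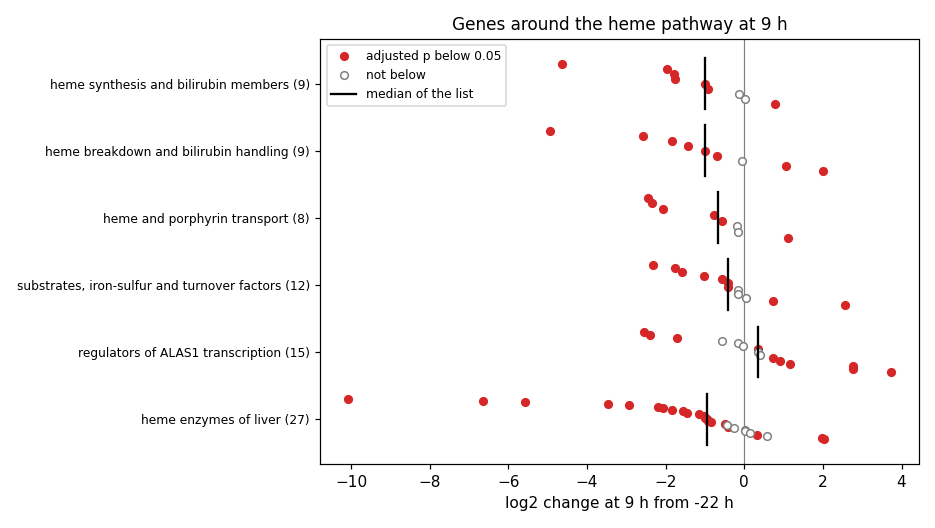
Log2 change at 9 h from -22 h (horizontal axis) of each measured gene (points) in the heme synthesis and bilirubin group and in 5 lists of genes around it (rows, number of genes in brackets), red where the adjusted p was below 0.05, with a black bar at the median of the list. The medians lie at -1.0, -1.0, -0.67, -0.42, 0.35 and -0.94 from top to bottom.

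The transcripts most like ALAS1 over the 36 arrays, by Pearson correlation among the genes named alone, were HDHD3 (r = 0.968), TOB1 (0.954), RHPN2 (0.954), GRAMD1C (0.953) and STARD5 (0.95). The arrays share the same 8 cows and 6 hours, so these values describe a shared course over hours. HDHD3, a haloacid dehalogenase-like protein, had log2 changes of -1.10 at 3 h, -4.56 (SE 0.20) at 6 h, -2.85 at 9 h, -0.88 at 12 h and -0.09 at 48 h. TOB1, an antiproliferative protein, had -3.07 (SE 0.18) at 6 h. Over the 6 hourly means, 1 of these 5 (RHPN2) stayed among the 5 most alike. Among the other heme genes, r with ALAS1 was 0.844 for UROD, 0.751 for UROS, 0.692 for FECH, 0.6 for ALAD and 0.515 for BLVRB, and it was -0.256 for PPOX and -0.655 for CPOX.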

How the data were processed

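Liver RNA of 8 cows was hybridized to the Affymetrix Bovine Genome Array (36 arrays). The authors made the deposited log2 values with GCRMA, and they were used as deposited. Quantile normalization makes a change relative to the other transcripts, and background correction compresses values near the lower end. Raw array files were not used here. Genes were taken from the platform annotation: 13318 probe sets name 1 gene, 86 name several and 10724 none. One linear model of the 36 arrays (limma 3.58.1 under R 4.3.3) gave a mean to each hour and left the cow out; the study used limma and does not say whether the cow was in its model. Probe sets were adjusted by Benjamini-Hochberg (0.05) against -22 h and by Bonferroni (0.01) between successive hours. Scripts were tested on simulated data. Figures were drawn with matplotlib 3.10.9.

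The cow numbers come from the labels, and arrays of the same cow deviated together. Deviations from the hourly means correlated within cows at 0.289 on average (0.215 to 0.431) for -22 and 9 h, 0.316 (0.116 to 0.505) for -22 and 48 h and 0.273 (0.213 to 0.35) for 9 and 48 h, and at about -0.04 between cows.

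The genes, lists and tests were chosen with earlier results of these data known. Named genes were the 9 genes, up to 5 per list with the largest change called at that hour and of the same direction in every cow, the brightest of each list, and the 5 most like ALAS1 (HMOX2, IDO1, CYB5B, CYC1, THRSP and AKR1C3 were added after their values were seen). For CYP1A1, ABCG2, EGR1 and SLC25A11, 1 other probe set each did not show the change given. Their mean levels were near the lower end (1.92, 2.43, 1.42 and 2.11). Of 191 symbols in the lists, 133 were measured. ALB and HNF4A stand both in a pathway list and among the hepatocyte markers, and ALAS2 in both the list of turnover factors and that of red-cell markers. Alternatives were a fixed or random replicate block per cow, leaving out single cows, using only the 4 cows biopsied 6 times and weighting arrays. Arrays were also centred on the median of their probe sets with a mean level of at least 5 (median centring). Others were dropping probe sets that reached 5 on fewer than 4 arrays, another variance prior, Bonferroni adjustment and averaging a gene's probe sets. Added later were 3 single arrays left out and the GAPDH difference as a covariate.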

Additional observations from a re-analysis of the deposited data

Results flagged for a closer look

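In 6 of the 72 groups of 4 or 8 arrays tested, the outermost array stood apart from the rest by Dixon's test, which flags about 1 in 20 groups by chance. At 48 h cow 2 was lowest both for ALAD, with a log2 value of 12.8326 against 13.60 to 13.82 in the other 7 cows, and for UROD, with 9.0023 against 9.97 to 10.37. At 3 h cow 3 was lowest for PPOX (7.436 against 7.88 to 7.97) and for the second FECH probe set (3.7992 against 5.06 to 5.30). At 12 h cow 3 was highest for BLVRA (3.1192 against 2.83 to 2.84), and cow 1 lowest for the second UROD probe set (2.5523 against 2.61), both near the lower end of the scale. The cause of these single values was not tested.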

How the results depend on the processing

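Over the alternatives, ALAS1 changed by -2.33 to -1.92 at 3 h, -6.66 to -6.22 at 6 h, -4.83 to -4.48 at 9 h, -2.62 to -1.93 at 12 h and -0.87 to -0.42 at 48 h. Its call changed once, at 3 h under Bonferroni adjustment (-2.11, Bonferroni-adjusted p in limma = 0.0695), and no direction of a called change turned. With the cow as a fixed replicate block the 6 h change was -6.33, and the block changed no call of the 9 genes other than that of BLVRA at 12 h (0.08, limma adjusted p = 0.0621), so 1 gene was higher at 12 h. Of the 9 genes, 1 (CPOX) was also higher at 12 h with the 4 cows, median centring and the dim filter, another 1 (BLVRA, 0.14, near the lower end, with CPOX lost) with the GAPDH covariate, 0 with Bonferroni, and 1 to 2 with a cow left out (without cow 2, 3 or 5, 1). Higher at 3 h were 0 with the 4 cows, Bonferroni, the GAPDH covariate or without the -22 h array of cow 7, and 0 to 1 with a cow left out. Higher at 48 h were 0 with the 4 cows, Bonferroni or the GAPDH covariate. Bonferroni left 0 genes lower at 3 h, 2 at 6 h and 0 at 48 h, and the GAPDH covariate 0 lower at 48 h. Of the list counts given at 9 h, Bonferroni left 1 gene higher in place of 2 for heme breakdown and for substrates, and 4 in place of 7 for regulators, and at 6 h 6 heme enzymes lower in place of 14. By hourly means 1 of the 5 genes most like ALAS1 remained. The causes were not tested. Median centring brought 1 call not made otherwise, BLVRA at 48 h (0.16). The number of cows, 4 at 3, 6 and 12 h, limits the precision.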
